A study of Homo sapiens with 24 samples.

Results

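The 3 Mb of human chromosome 8 around the MYC gene (hg19, 127800 to 130800 kb) were examined in peak lists from UMUC1, a human bladder cancer cell line. The lists came from ChIP-seq, which sequences the DNA that an antibody against a protein or histone mark pulls down. Every peak or region that shared at least 1 bp with this window was taken, with MYC placed at 128748 to 128754 kb and PVT1 just downstream of it, and values were given by bins of 100 kb. The window held 2419 of the 1483402 peaks and regions in the 18 lists. The 3 lines carried a stable pSIN-puro construct: UTX with the substitutions H1146A and E1148A (HEAA), unmutated UTX (WT), or no insert (EV, the empty vector). All 3 lines shared the parental cells and the pSIN-puro backbone, and all were harvested 3 days after plating. UTX thus came from a vector in HEAA and WT, and the labels do not say whether a line is 1 clone or a pool. UTX, MLL4, H3K4me1 and H3K27me3 had 1 list per line, so these marks allowed no test. The UTX peak names carry the word merged and the MLL4 names point to a merged input, and what was merged is not stated, so a UTX list may pool more than 1 library. H3K27ac had 2 numbered libraries per line, and the labels do not say whether these came from separate cultures, so its p-values rest on a spread that could be technical.

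MYC encodes a transcription factor that drives cell growth and division and is often overexpressed in tumours. It lies in a gene desert, where distant enhancers on both sides reach its promoter in a manner that depends on the cell type, and the neighbouring long non-coding RNA gene PVT1 holds several of these enhancers. In RefSeq's gene order (GRCh38.p14, used for names only) the genes upstream of MYC were CASC21, CASC8, CCAT2, POU5F1B, LOC105375754 and CASC11, of which all but the POU5F1 retrogene POU5F1B are long non-coding RNA genes. PVT1 and the microRNA gene MIR1204 followed downstream. UTX (KDM6A) removes methyl groups from lysine 27 of histone H3 and is often inactivated in bladder cancer. HEAA changes residues that hold the iron of its catalytic site. UTX also belongs to the complex of MLL4 (KMT2D), which places H3K4me1 at enhancers. H3K4me1 marks enhancers in general, H3K27ac marks active enhancers and promoters, and H3K27me3 is the Polycomb mark of repressed chromatin.

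The lists differed in length in ways that bear on every comparison between lines. The H3K27ac lists held 72700 and 37298 regions in HEAA, 63557 and 40470 in WT and 59180 and 45880 in EV, so replicate 1 was longer than replicate 2 in each line. With the lists of a mark cut to equal size, the differences in window coverage between lines kept their sign, and their values stand beside the results. Sequencing depth is unknown, and a site without a region is a site below the caller's threshold. In bulk chromatin, fewer cells with a mark and less of the mark per cell cannot be told apart. Coverage in kb was therefore also set against the share of chromosomes 1 to 22 and X (3035.7 Mb) that the same list covered.

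Across the window the marks fell into 3 stretches. A central stretch of 10 bins, from 128.2 to 129.2 Mb with MYC inside it, held most of the H3K27ac and no H3K27me3 in any line. An upstream flank of 4 bins (127.8 to 128.2 Mb) and a downstream flank of 16 bins (129.2 to 130.8 Mb) held H3K27me3 in all 3 lines, apart from the bin that starts at 129.2 Mb, where the WT list had none. These borders were set from the H3K27me3 values themselves. In the central stretch H3K27ac covered 164 and 98.4 kb in HEAA, 114 and 107 kb in WT and 144 and 145 kb in EV. In the downstream flank, which is longer, it covered 53.3 and 13.1 kb in HEAA, 46.2 and 15.0 kb in WT and 35.1 and 18.0 kb in EV. In the upstream flank it covered 12.4 and 5.87 kb in HEAA, 12.9 and 5.39 kb in WT and 7.09 and 9.50 kb in EV. The central stretch thus had the highest H3K27ac coverage of the 3 in all 6 libraries.

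**Figure D1:**
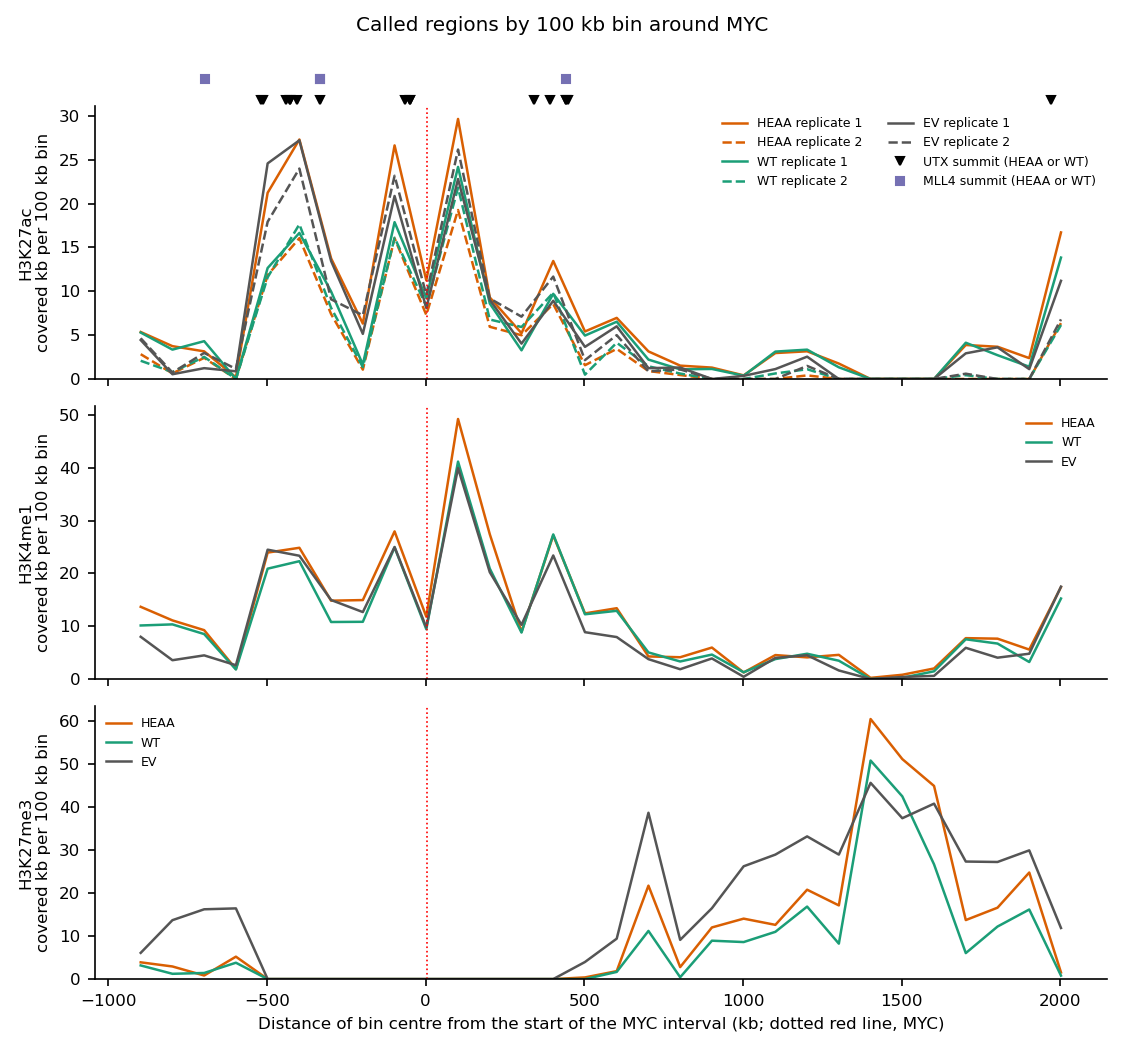
Covered kb per 100 kb bin (y axes) for H3K27ac (top, 1 line per library), H3K4me1 (middle) and H3K27me3 (bottom, 1 list per line) against distance from MYC in kb (x axis). Triangles and squares mark UTX and MLL4 summits called in HEAA or WT. H3K27ac and H3K4me1 peak on both sides of MYC within the 10 central bins, where H3K27me3 is at 0 in all 3 lines.

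No H3K27me3 region was called across 1087 kb in HEAA (128164420 to 129251527), 1201 kb in WT (128164243 to 129365565) and 1062 kb in EV (128172405 to 129234285). In EV this interval reached 576 kb upstream and 480 kb downstream of MYC. Bins without H3K27me3 in any line made up 33.3% of the window, against 22.8% of the 26886 bins genome-wide that held any histone region. Runs of at least 10 such bins in a row occurred 27 times on chromosomes 1 to 22 and X. The run at MYC carried 12.9 kb of H3K27ac per bin as a mean over the 6 libraries, and it alone among the 27 runs reached that value. The mean over the 26886 bins with any histone region was 2.91 kb and the median 0.768 kb. H3K27ac and H3K27me3 shared 0 kb in the window in all 6 libraries, and between 81.7% and 87.5% of the H3K27ac bases lay within H3K4me1 of the same line. These overlaps were not computed genome-wide, so they are not shown to be particular to the window.

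At MYC itself an H3K27ac region ran from upstream of the gene into its body in every library. In HEAA it spanned 128745584 to 128752852 and 128745994 to 128752042, in WT 128745029 to 128752229 and 128745672 to 128752171, and in EV 128745916 to 128752132 and 128745389 to 128752597. Within the MYC interval H3K27ac covered 5.01 and 4.04 kb in HEAA, 4.23 and 4.17 kb in WT and 4.13 and 4.87 kb in EV. The 3 lines overlapped in these values. The authors' fold enrichment of the region was 11.5 and 10.3 in HEAA, 10.5 and 10.3 in WT and 11.5 and 15.8 in EV. It ranked within the top 7.88% of its list by fold in every library, and within the top 1.38% in EV replicate 1. A small further region near the end of the gene was called in HEAA replicate 1 (128753842 to 128754628) and in EV replicate 2 (128753729 to 128754019). H3K4me1 lay over the end of the gene rather than its start, at 128751525 to 128753276 and 128753664 to 128756000 in HEAA, 128751329 to 128756102 in WT and 128751899 to 128755717 in EV. No H3K27me3 region and no UTX or MLL4 peak overlapped the MYC interval in any line. Beyond the MYC region, the nearest H3K27ac regions called in all 6 libraries were 45.9 kb upstream (128697660 to 128702141) and 52.1 kb downstream (128806102 to 128809711).

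The bin that holds MYC (128.7 to 128.8 Mb) had less H3K27ac than either neighbour. It held 11.2 and 7.30 kb in HEAA, 9.21 and 8.30 kb in WT and 8.09 and 9.60 kb in EV. The bin next downstream, on the PVT1 side (128.8 to 128.9 Mb), held 29.6 and 19.3 kb in HEAA, 24.2 and 21.8 kb in WT and 22.8 and 26.2 kb in EV. The bin next upstream (128.6 to 128.7 Mb) held 26.6 and 16.0 kb in HEAA, 17.9 and 16.1 kb in WT and 20.9 and 23.2 kb in EV. HEAA and EV overlapped in all 3 of these bins. WT and EV overlapped in the MYC bin and the PVT1-side bin, and both WT libraries lay below both EV libraries in the upstream bin.

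The PVT1-side bin had the highest mean H3K27ac of the window, 24.0 kb over the 6 libraries. This lay at percentile 99.0 of the 26886 bins with any histone region. The PVT1-side bin was followed by the bins that start at 128.3 Mb (21.5 kb), 128.6 Mb (20.1 kb), 128.2 Mb (16.6 kb) and 129.1 Mb (10.4 kb). H3K4me1 was also highest in the PVT1-side bin in every line, at 49.2 kb in HEAA, 41.2 kb in WT and 39.9 kb in EV. No UTX peak was called in this bin in any line, although the other 4 bins each had at least 1 in HEAA and in WT. Of the 2007 bins genome-wide with at least as much H3K27ac as the fifth of these, 57.4% held a UTX peak in HEAA or WT. The share among bins with as much H3K27ac as the PVT1-side bin was not computed. At the other end, 3 bins from 130.1 to 130.4 Mb had no H3K27ac in any library and the highest mean H3K27me3, at 52.2, 43.6 and 37.4 kb from upstream to downstream.

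Over the whole window the H3K27ac values of the 3 lines overlapped. It covered 230 and 117 kb in HEAA, 173 and 128 kb in WT and 186 and 173 kb in EV, with means of 174 ± 79.4 kb in HEAA, 150 ± 31.9 kb in WT and 179 ± 9.65 kb in EV (SD, n = 2 each). HEAA spanned the values of both other lines. HEAA and WT together minus EV differed by -17.4 kb (exact two-sided permutation test, p = 0.733, where the smallest p that 15 splits allow is 0.0667). The differences between pairs of lines were 23.2 kb for HEAA minus WT (p = 1), -5.82 kb for HEAA minus EV (p = 1) and -29.1 kb for WT minus EV (p = 0.667, all exact permutation tests that cannot go below 0.333). With lists of equal size HEAA and WT minus EV was -16.8 kb (exact permutation test, p = 0.467) and WT minus EV was -23.6 kb (p = 0.333, the smallest possible). Within a replicate number the sign depended on the number for HEAA: HEAA minus EV was 43.5 kb in replicate 1 and -55.1 kb in replicate 2. WT minus EV was -13.4 and -44.8 kb. The share of the window covered, divided by the share of the genome covered, was 2.28 ± 0.253 in HEAA, 2.08 ± 0.365 in WT and 2.29 ± 0.211 in EV (SD, n = 2 each), and these values overlapped too. HEAA and WT minus EV was -0.107 on this scale (exact permutation test, p = 0.733).

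Within the central stretch, less H3K27ac was called in both WT libraries than in both EV libraries upstream of MYC, and the lines overlapped from MYC onward. Upstream of MYC, over 548 kb, H3K27ac covered 100.2 and 55.7 kb in HEAA, 63.5 and 58.7 kb in WT and 95.2 and 86.1 kb in EV. Both WT libraries lay below both EV libraries there, and HEAA spanned them. From the start of MYC to 129.2 Mb, over 452 kb, it covered 63.9 and 42.8 kb in HEAA, 50.3 and 48.8 kb in WT and 48.9 and 59.0 kb in EV, and all 3 lines overlapped. The upstream side held 58.8 ± 3.20% of the central H3K27ac in HEAA, 55.2 ± 0.845% in WT and 62.7 ± 4.75% in EV (SD, n = 2 each). WT over EV upstream of MYC was 0.667 in replicate 1 and 0.681 in replicate 2. WT over EV genome-wide was 1.09 and 0.772, so in both numbers WT was lower upstream of MYC than over its list as a whole. From MYC onward WT over EV was 1.03 and 0.827. HEAA over EV was 1.05 and 0.646 upstream and 1.31 and 0.725 from MYC onward, against 1.25 and 0.674 genome-wide. In both numbers HEAA too was lower upstream of MYC than over its list as a whole, so this was not particular to WT. This division at MYC was chosen after the values by bin were seen, so it carries no test.

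**Figure D2:**
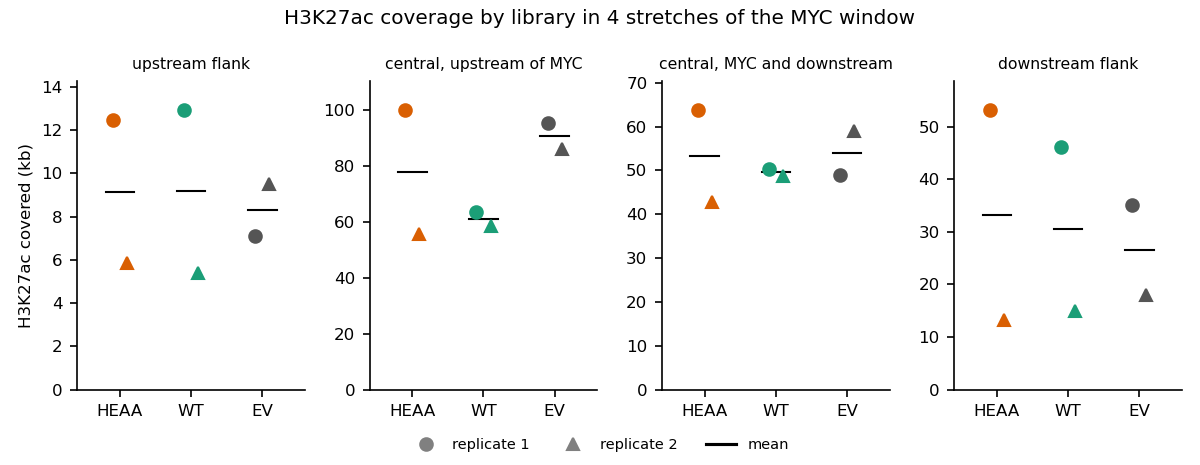
H3K27ac covered kb (y axis) in each library by line (x axis) in 4 stretches of the window, with the mean as a bar; circles are replicate 1 and triangles replicate 2. In the central stretch upstream of MYC both WT libraries (63.5 and 58.7 kb) lie below both EV libraries (95.2 and 86.1 kb), and HEAA (100.2 and 55.7 kb) spans them.

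By bin, both WT libraries were below both EV libraries in 6 of the 27 bins with any H3K27ac, or 22.2%, against 12.9% of the 17990 such bins genome-wide. Of these 6 bins, 5 were among the 10 central ones: those starting at 128.2, 128.3, 128.5, 128.6 and 128.9 Mb. The bin at 128.2 Mb held 21.2 and 11.8 kb in HEAA, 12.6 and 11.6 kb in WT and 24.6 and 17.9 kb in EV. The bin at 128.5 Mb, which had no UTX peak, held 6.31 and 1.07 kb in HEAA, 1.65 and 1.36 kb in WT and 5.14 and 7.26 kb in EV. Both WT libraries were above both EV libraries in 2 bins (7.41%, against 6.08% genome-wide), at 127.9 and 129.4 Mb. HEAA was below EV in 1 bin (3.70%, against 6.06%), at 128.1 Mb, and above it in 0 (against 3.39%). HEAA was above WT in 0 bins (against 1.29%) and below it in 0 (against 1.15%), and when each bin was divided by the genome-wide coverage of its library the counts were also 0 (against 4.36%) and 0 (against 5.62%). On this relative scale WT was below EV in 4 bins (against 12.2%) and HEAA in 4 (against 12.1%), and both were so at 128.1, 128.2, 128.5 and 129.5 Mb. Each line was above EV in 3 bins (against 12.1% for WT and 10.4% for HEAA). WT and HEAA share their EV libraries in these counts.

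Joining all libraries gave 171 merged H3K27ac regions in the window, of which 45 were called in all 6 libraries (26.3%, against 31.8% of the 81795 merged regions genome-wide). A further 52 were called in 1 library. Among the 45, both WT libraries covered less than both EV libraries in 14 regions, or 31.1%, against 19.2% genome-wide. The same held for HEAA in 6 regions, or 13.3%, against 11.7%. In the central stretch upstream of MYC, 12 of 17 such regions were lower in WT and 3 of 17 in HEAA, while downstream of the MYC region the count was 2 of 15 in each line. Coverage was higher than in both EV libraries in 1 region in WT (against 7.37% genome-wide) and 2 in HEAA (against 4.46%), all downstream of MYC. These counts use covered kb that was not divided by the genome-wide coverage of each library. HEAA had both the longest and the shortest H3K27ac list (72700 and 37298 regions). Whether list length sets the WT and HEAA counts apart was not tested. On the relative scale by bin, WT and HEAA were below EV in the same 4 bins.

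**Figure D3:**
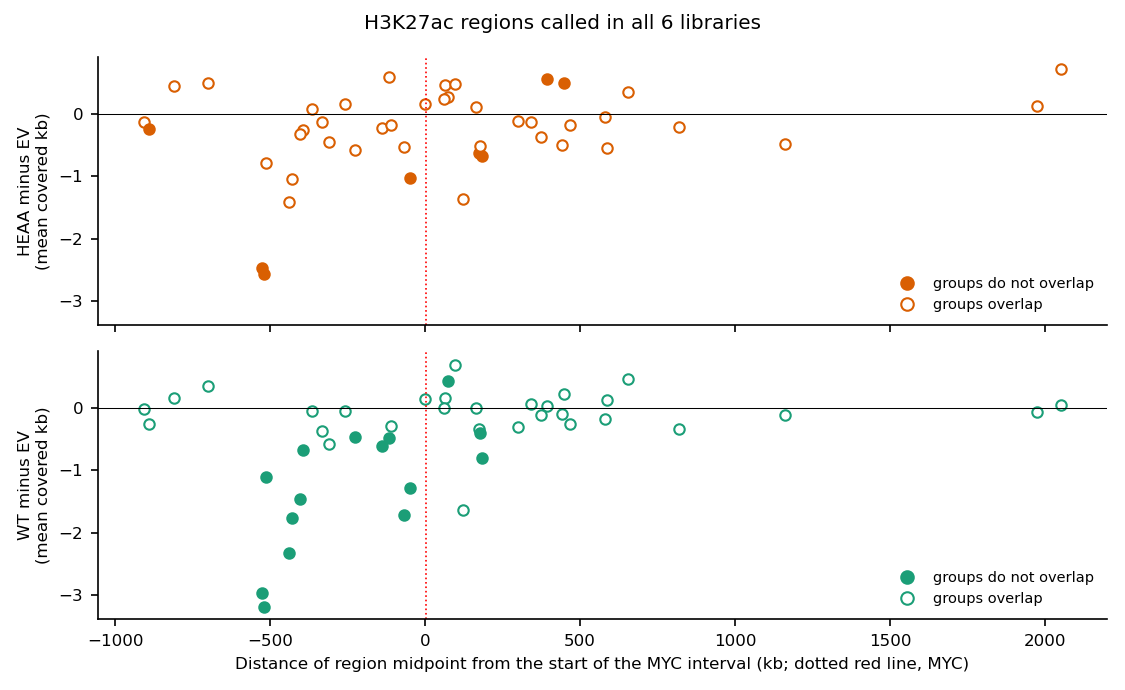
Difference in mean H3K27ac covered kb (y axis) from EV for HEAA (top) and WT (bottom) at the 45 merged regions called in all 6 libraries, by distance from MYC in kb (x axis). Filled points mark regions where the 2 libraries of the line do not overlap the 2 of EV. Covered kb is not divided by the genome-wide coverage of each library, and the longest and shortest H3K27ac lists are both of HEAA. In WT, 12 of the 17 central regions upstream of MYC are filled below 0, against 3 of 17 in HEAA.

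The 5 widest of the 45 regions included the one at MYC. The widest, at 128672803 to 128685266, covered 12.5 and 9.92 kb in HEAA, 10.9 and 9.16 kb in WT and 11.5 and 12.0 kb in EV. Both WT libraries were below both EV libraries there, and HEAA overlapped EV. The region at 128863046 to 128874435, on the PVT1 side, covered 8.03 and 7.76 kb in HEAA, 7.14 and 8.11 kb in WT and 7.21 and 11.3 kb in EV, with overlap between all lines. The region at 128303975 to 128314419 covered 9.66 and 7.61 kb in HEAA, 7.28 and 8.15 kb in WT and 9.64 and 10.4 kb in EV. Here too both WT libraries were below both EV libraries, and HEAA overlapped EV. The region at 128231015 to 128239484 covered 8.47 and 6.11 kb in HEAA, 7.14 and 6.81 kb in WT and 8.35 and 7.81 kb in EV, with the same arrangement. The region at MYC (128744846 to 128752852) covered 7.68 and 6.05 kb in HEAA, 7.20 and 6.50 kb in WT and 6.22 and 7.21 kb in EV, and all 3 lines overlapped.

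Few regions were present in one kind of line and absent from the other, in the window as genome-wide. No merged region was called in all 4 HEAA and WT libraries and in neither EV library (gained), against 0.54% of merged regions genome-wide. A single region was called in both EV libraries and in none of the other 4 (lost, 0.585% of 171, against 0.91% genome-wide). It spanned 0.73 kb at 128190980 to 128191709, with fold 3.47 and 5.86 in EV. It lay in the upstream flank, and H3K4me1 was called there in all 3 lines. These counts rest on both replicate numbers: of 168 merged regions of replicate 1 alone, 18 were gained (10.7%, against 12.4% genome-wide) and 18 lost (10.7%, against 6.97%). Of 98 of replicate 2 alone, 2 were gained (2.04%, against 2.89%) and 22 lost (22.4%, against 21.9%).

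UTX peaks were denser in the window than across the genome in both lines with a UTX construct. There were 11 in HEAA (3.67 per Mb, against 0.940 genome-wide), 12 in WT (4 per Mb, against 0.845) and 0 in EV, whose list held 31 peaks in all. The peaks merged to 13 sites, of which 10 were called in both lines (76.9%), 1 in HEAA alone and 2 in WT alone. Genome-wide, 46.6% of 3688 merged sites were called in both. All but 1 of the 13 sites lay in the central stretch, with 8 sites upstream of MYC and 5 downstream. The exception lay near the end of the window at 130719964 to 130720254, 1972 kb downstream of MYC (fold 5.91 in HEAA and 5.10 in WT). Distances of UTX sites run from the start of the MYC interval to the midpoint of the site. The sites nearest to MYC were 48.3 kb upstream (128699547 to 128699769, fold 4.01 in HEAA and 3.65 in WT) and 341 kb downstream (129089137 to 129089396, fold 4.83 in HEAA and 4.71 in WT). No peak was called in the 389 kb between them.

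**Figure D4:**
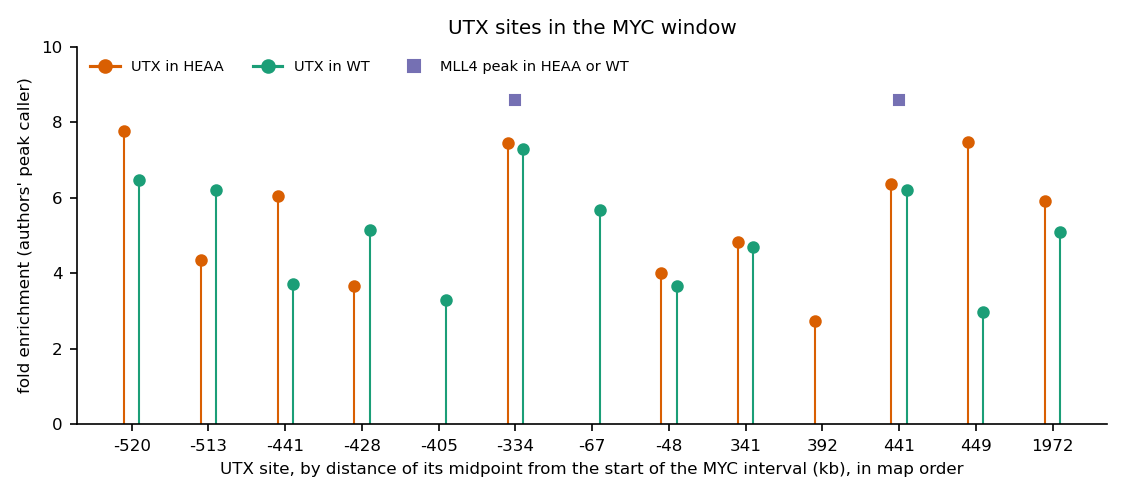
Authors' fold enrichment (y axis) of each UTX peak in HEAA and WT at the 13 UTX sites, in map order and named by distance from MYC in kb (x axis). Squares mark sites with an MLL4 peak, and a missing stem means no peak in that list. The 10 shared sites have fold between 2.98 and 7.76.

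Upstream of MYC, the site with the highest fold in HEAA was at 128227353 to 128227835, with fold 7.76 in HEAA and 6.46 in WT. The site at 128413163 to 128413841 had fold 7.45 in HEAA and 7.31 in WT, within the top 12.7% of the HEAA list and 12.6% of the WT list, and its summits in the 2 lines were 2 bp apart. Besides the site nearest to MYC, the other shared sites upstream were at 128234980 to 128235359 (4.36 in HEAA and 6.20 in WT), 128306857 to 128307283 (6.06 in HEAA and 3.71 in WT) and 128319941 to 128320209 (3.66 in HEAA and 5.14 in WT). The sites of WT alone were at 128342510 to 128342750 (3.29) and 128681166 to 128681422 (5.67), the second of these inside the widest H3K27ac region. Downstream, 3 sites lay close together: 129140125 to 129140305 in HEAA alone (2.74), 129188946 to 129189563 (6.36 in HEAA and 6.21 in WT) and 129196899 to 129197205 (7.47 in HEAA and 2.98 in WT). The last of these ranked 12.3% from the top of the HEAA list and 98.3% from the top of the WT list by fold, and its summits were 7 bp apart. Fold is scaled within a list, so these pairs of values show rank and not a change in binding.

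H3K27ac was called at the UTX sites in EV as in the other lines, as it was at most UTX sites genome-wide. It overlapped 13 and 13 of the 13 sites in HEAA, 12 and 12 in WT and 13 and 13 in EV. Genome-wide the shares of UTX sites were 92.8% and 71.1% in HEAA, 92.0% and 76.6% in WT and 87.9% and 83.4% in EV. At 11 sites (84.6%) it was called in all 6 libraries, against 66.2% of UTX sites genome-wide. H3K4me1 overlapped 10 sites in HEAA, 11 in WT and 11 in EV. At 8 sites (61.5%) it overlapped the site in all 3 lines, against 53.2% genome-wide. It lay within 1 kb of all 13 sites in each line, a share that was not computed genome-wide. No site overlapped H3K27me3, as was the case for all but 0.217% of sites genome-wide.

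MLL4 had 3 peaks in HEAA, 1 in WT and 0 in EV, from lists of 1125 peaks in HEAA, 898 in WT and 133 in EV. The peak called in both HEAA and WT lay on the UTX site at 128413163 to 128413841, with fold 6.91 in HEAA and 6.52 in WT. A further MLL4 peak of HEAA lay on the UTX site at 129188946 to 129189563 (fold 6.19). MLL4 thus met 2 of the 13 UTX sites (15.4%), against 29.4% of UTX sites genome-wide. The remaining MLL4 peak of HEAA (128051017 to 128051181, fold 5.49) was in the upstream flank, without a UTX peak. H3K27ac overlapped it in WT replicate 1 and in no other library, but lay within 1 kb of it in every library except EV replicate 1.

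H3K4me1 coverage was closer to that of EV around MYC than in the flanks, where HEAA and WT had more than EV, with 1 list per line and no test. In the central stretch it covered 231 kb in HEAA, 198 kb in WT and 204 kb in EV, which gave ratios to EV of 1.13 for HEAA and 0.968 for WT. Genome-wide these ratios were 1.18 for HEAA and 1.14 for WT, and on chromosome 8 they were 1.26 for HEAA and 1.16 for WT. Over the whole window they were 1.24 for HEAA and 1.07 for WT, so the window as a whole did not exceed chromosome 8. In the upstream flank it covered 35.9 kb in HEAA, 30.8 kb in WT and 18.7 kb in EV, with ratios to EV of 1.92 for HEAA and 1.65 for WT. In the downstream flank it covered 96.1 kb in HEAA, 85.9 kb in WT and 70.1 kb in EV, with ratios to EV of 1.37 for HEAA and 1.22 for WT. By bin, among those with at least 5 kb in either list, HEAA was at least 1.5 times higher than EV in 6 of 20 bins (30%, against 21.2% genome-wide) and WT in 4 of 19 (21.1%, against 19.3%). None of these bins was in the central stretch, and in 0 bins was either line lower by as much (against 2.22% for HEAA and 3.71% for WT). HEAA was at least 1.5 times higher than WT in 1 of 21 bins (4.76%, against 2.96%), at 130.6 Mb, and lower by as much in 0 (against 1.67%). Upstream of MYC in the central stretch H3K4me1 was 1.06 times EV in HEAA and 0.894 times EV in WT. From MYC onward it was 1.21 times EV in HEAA and 1.04 times EV in WT.

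H3K27me3 in the flanks covered less in HEAA and WT than in EV, again with 1 list per line and no test. Over the window it covered 329 kb in HEAA, 231 kb in WT and 467 kb in EV. The ratio to EV was 0.704 for HEAA, against 1.05 genome-wide and 1.22 on chromosome 8. The ratio was 0.496 for WT, against 0.704 genome-wide and 0.731 on chromosome 8, so the WT list as a whole also covered less. HEAA over WT was 1.42 in the window, against 1.49 genome-wide. With lists of equal size the window ratio to EV was 0.698 for HEAA and 0.518 for WT. In the upstream flank H3K27me3 covered 12.9 kb in HEAA, 9.61 kb in WT and 52.4 kb in EV, with ratios to EV of 0.245 for HEAA and 0.183 for WT. In the downstream flank it covered 316 kb in HEAA, 222 kb in WT and 414 kb in EV, with ratios to EV of 0.762 for HEAA and 0.535 for WT.

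By bin, H3K27me3 was at least 1.5 times lower than in EV in 14 of 19 bins in HEAA (73.7%, against 18.6% genome-wide) and in 17 of 19 in WT (89.5%, against 51.7%). It was higher by as much in 0 bins (against 23.4% for HEAA and 6.4% for WT). HEAA was at least 1.5 times higher than WT in 6 of 13 bins (46.2%, against 54.7%) and lower by as much in 0 (against 0.223%). In the 3 bins from 130.1 to 130.4 Mb, which had no H3K27ac, H3K27me3 covered 156 kb in HEAA, 120 kb in WT and 124 kb in EV, with ratios to EV of 1.26 for HEAA and 0.969 for WT. From upstream to downstream the single bins had ratios of 1.33, 1.37 and 1.10 for HEAA and 1.11, 1.14 and 0.654 for WT, so the last of them was among the 17 lower bins of WT. In the other 13 bins of the downstream flank it covered 160 kb in HEAA, 102 kb in WT and 291 kb in EV, with ratios to EV of 0.549 for HEAA and 0.351 for WT. The widest H3K27me3 region in the 3 bins was 8.40 kb in HEAA, 4.69 kb in WT and 4.42 kb in EV, from 110 regions in HEAA, 114 in WT and 110 in EV. The central stretch was set by its lack of H3K27me3, so H3K27me3 could be lower than in EV only in the flanks. H3K4me1 was higher than in EV over each flank as a whole, but not in every bin with less H3K27me3. In the bins starting at 128.1 and 130.7 Mb neither HEAA nor WT had more H3K4me1 than EV. A link between the marks was not tested. Regions with a −log10 q of at least 5 were rare in the window and in the lists as a whole: 1 of 307 in HEAA (0.326%, against 0.519% of its list), 0 of 261 in WT (against 0.148%) and 1 of 458 in EV (0.218%, against 0.701%). The median fold of the window's regions was 2.29 in HEAA, 2.59 in WT and 2.41 in EV, against 2.35, 2.59 and 2.44 over the HEAA, WT and EV lists.

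**Figure D5:**
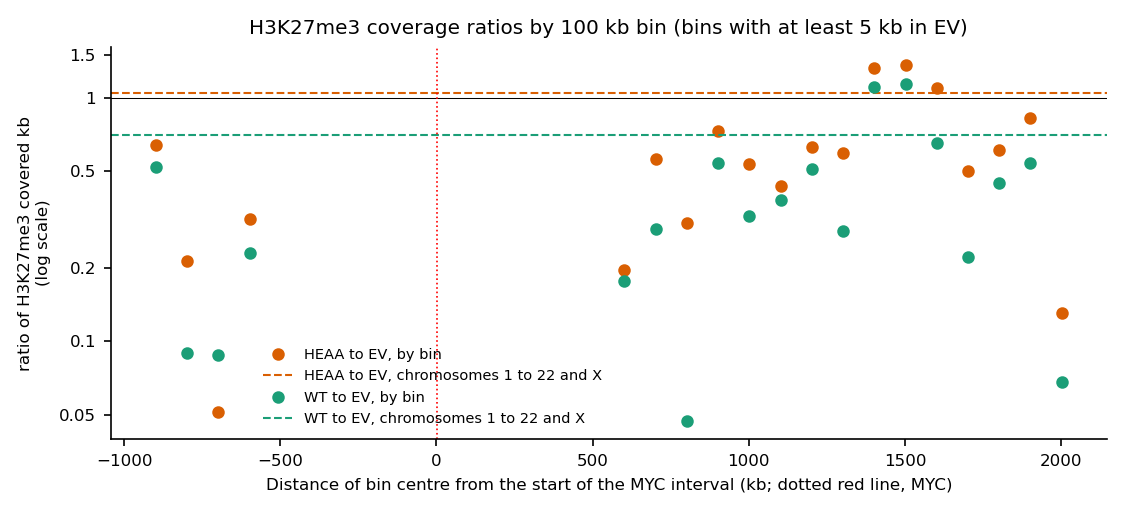
Ratio of H3K27me3 covered kb to EV (y axis, log scale) for HEAA and WT in the 19 bins with at least 5 kb in EV, by distance from MYC in kb (x axis). Dashed lines give the same ratio over chromosomes 1 to 22 and X (1.05 for HEAA and 0.704 for WT). HEAA lies below its dashed line in 16 bins and above it in the 3 bins from 130.1 to 130.4 Mb, and WT lies below its own in 17 bins, the last of those 3 included.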

How the data were processed

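ChIP-seq lists from 3 UMUC1 lines were analysed: 18 lists from 24 samples, the 6 inputs having no list used here. Per the labels' protocols, chromatin was fixed with paraformaldehyde and sonicated, after micrococcal nuclease digestion for UTX and MLL4. Peaks were called with MACS2 on hg19 (GRCh37), per the submitters' processing notes. The MACS2 version, the aligner and the depth were not given in the sources used here. Each deposited fold is a linear ratio over background from the authors' caller. The authors also deposited a score, which was not used, and the −log10 p-value and −log10 q-value of each peak. Fold only described or ranked peaks within a list.

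Intervals were counted from 1 and overlapped when they shared at least 1 bp. Coverage was computed with Python 3.11.15 and NumPy 2.4.6, and figures with matplotlib 3.10.9. The interval code was tested on simulated intervals. The permutation test was checked only for its number of splits. For H3K27ac the libraries were the units of exact permutation tests, which were two-sided. Bins of 100 kb were compared without a test, by non-overlap of libraries (H3K27ac) or by a ratio of at least 1.5 where either list covered at least 5 kb (other marks). Ranked items followed a rule: every UTX and MLL4 peak, every histone region at MYC, the 5 widest H3K27ac regions called in all 6 libraries, gained and lost regions, and the bins with the 5 highest and 3 lowest H3K27ac and the 3 highest H3K27me3 means, with the MYC bin and its neighbours. The window and lists were chosen with earlier results of these data known. The stretches, the sides of MYC, the bins without H3K27ac and the regions nearest to MYC were chosen after their values were seen. An hg19 annotation or sequence was not used, so PVT1's own extent is not marked. Alternatives covered the q threshold, list length, joined regions, a shorter window, left-out replicates and the replicate block.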

Additional observations from a re-analysis of the deposited data

How the results depend on the processing

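Each line had 2 H3K27ac libraries and 1 list of the other histone marks, and no test here could reach 0.05. Leaving out 1 replicate number decided the sign of several H3K27ac differences in the window. HEAA and WT minus EV ranged from -50.0 kb without replicate 1 to 15.1 kb without replicate 2, HEAA minus EV from -55.1 to 43.5 kb in the same order, and HEAA minus WT from -10.4 kb without replicate 1 to 56.9 kb without replicate 2. WT minus EV was lower in both cases (-44.8 and -13.4 kb), as was the difference in relative share of HEAA and WT minus EV (-0.0378 and -0.177). That relative share turned to 0.111 (exact permutation p = 0.667) with regions of −log10 q of at least 5. Its p ranged from 0.467 to 1 over the alternatives.

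Without replicate 1 there were 2 gained and 22 lost H3K27ac regions, and without replicate 2 there were 18 and 18. Lists of equal size gave 1 gained region. The lost region disappeared when regions less than 1 kb apart were joined (0) and lay outside the window trimmed by 500 kb at each end (0).

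At −log10 q of at least 5, H3K4me1 WT over EV was 0.899, and H3K27me3 WT over EV was 0, since no WT region passed. With the trimmed window H3K27me3 WT over EV was 0.576. With joined regions the upstream flank had an H3K27me3 ratio of WT to EV of 0.158. UTX peaks at −log10 q of at least 5 numbered 8 in HEAA and 8 in WT. The causes of these shifts were not tested, apart from those that follow from the alternative itself. The share of central H3K27ac upstream of MYC, WT minus EV (-7.51 percentage points), ranged from -10.3 to -4.75 over alternatives chosen after seeing the data, and HEAA minus EV (-3.90) from -5.72 to -2.80.

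The main tests did not treat the replicate numbers as pairing the libraries, since the labels do not say what a number marks. Deviations of same-numbered libraries from their line's mean over 17990 bins correlated at 0.893 for HEAA and WT, 0.647 for HEAA and EV and 0.704 for WT and EV. With the replicate number as a block, the EV label was permuted within each number for HEAA and WT against EV (9 arrangements). HEAA and WT minus EV stayed at -17.4 kb (this exact permutation, p = 0.556) and the relative share at -0.107 (same test, p = 0.556). For pairs of lines signs were flipped by number (4 arrangements). WT minus EV stayed at -29.1 kb (exact sign-flip p = 0.5), HEAA minus EV at -5.82 kb (exact sign-flip p = 1) and HEAA minus WT at 23.2 kb (exact sign-flip p = 1). With 4 arrangements the sign-flip p could not go below 0.5, the value that WT minus EV had. Neither the 9 nor the 4 arrangements allowed a p low enough to change a call. The block therefore could not test whether the calls depend on the replicate number.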
